A study of Rattus norvegicus with 6 samples.

Results

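The 10 genes described here encode the core machinery that makes microRNAs and loads them onto Argonaute proteins in rat prostate: Drosha, Dgcr8, Xpo5, Dicer1, Tarbp2, Prkra, Ago1, Ago2, Ago3 and Ago4. They were picked out by gene name, 10 of the 32883 gene rows in the deposited table, and all 10 were among the 14003 genes abundant enough to be tested. The set was chosen with hormone-against-control results of these same libraries already known, so the values of that comparison which chose it are given for its members as a description, without a test.

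MicroRNAs start as hairpins in longer transcripts. In the nucleus the Microprocessor, made of the ribonuclease Drosha and its RNA-binding partner Dgcr8, cuts the hairpin free, and exportin 5 (Xpo5) carries it to the cytoplasm. There Dicer (Dicer1), with the double-stranded RNA-binding proteins Tarbp2 and Prkra, trims it to a duplex, and one strand is held by an Argonaute protein, which directs silencing of matching messenger RNAs. In prostate, as in other tissues, this machinery helps to set how much of each mature microRNA is made from its transcript.

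Prostate RNA was sequenced from 3 hormone tissues and 3 control tissues. Hormone rats carried 4 subcutaneous pellets for 4 weeks, each with 25 mg of testosterone and 2.5 mg of estradiol. Control rats had a skin incision that was stapled, with no pellet, and one label field names benign prostatic hyperplasia (BPH) for all 6 samples, controls included. No label gives a strain or age or says that the 3 tissues of a group came from separate animals, so the spread behind each p-value is that between tissue samples. Totals ranged from 13744680 to 15949500 counts in hormone libraries and from 12931982 to 15809858 counts in control libraries. Levels within a gene are given as CPM (counts scaled by library total) after TMM, the trimmed mean of M-values scaling of edgeR, and levels between genes as FPKM, which also divides by gene length. Log2 fold changes are hormone minus control, with their standard error (SE). Identifiers and positions are those of the deposited table, whose genome build is not given.

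Drosha was the 1 member whose transcript differed strongly between the groups. It had 113, 92.2 and 130 TMM CPM in hormone libraries 1 to 3, against 40.9, 39.8 and 38.6 TMM CPM in control libraries 1 to 3. Every hormone library was above every control library, and the hormone libraries were also the more spread, with a coefficient of variation of 16.8% against 2.91% in controls. The mean was 112 ± 18.8 TMM CPM in hormone prostates and 39.7 ± 1.16 TMM CPM in control prostates (SD, n = 3 each), a 2.80-fold higher level (log2 fold change 1.49 ± 0.14, SE). These values rest on 1749, 1269 and 1660 read counts in the hormone libraries, against 573, 655 and 601 read counts in the control libraries. In bulk tissue, more cells that hold a transcript and more of that transcript per cell cannot be told apart.

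By the edgeR quasi-likelihood test over all genes (adjusted p under 0.05), Drosha was the 1 of 10 members called higher, while 2.39% of all genes tested were called higher. It called 0 members lower, and 0.886% of all genes tested. At an unadjusted p under 0.05, 2 members were higher and 1 was lower, and DESeq2 also called 0 members lower. Over all genes edgeR called 334 higher and 124 lower, or 259 higher and 230 lower when libraries were scaled by their totals alone. DESeq2 called 906 higher and 618 lower over all genes, and the share at an unadjusted p under 0.05 is not given here. The 3 hormone values were all above or all below the 3 control values for 3 of 10 members, Drosha, Ago3 and Prkra, while 31.3% of all genes tested had groups that did not overlap. Because the members were picked with this comparison known, nothing is read from these counts. The log2 fold change lay within 0.25 of 0 for 6 of 10 members and beyond it for Drosha, Ago3, Ago2 and Prkra. The median over the 10 was 0.05, beside -0.00 over all genes tested. A higher log2 fold change than that of Drosha was found for 346 of the 14003 genes tested and for 183 of the 334 genes called higher.

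**Figure D1:**
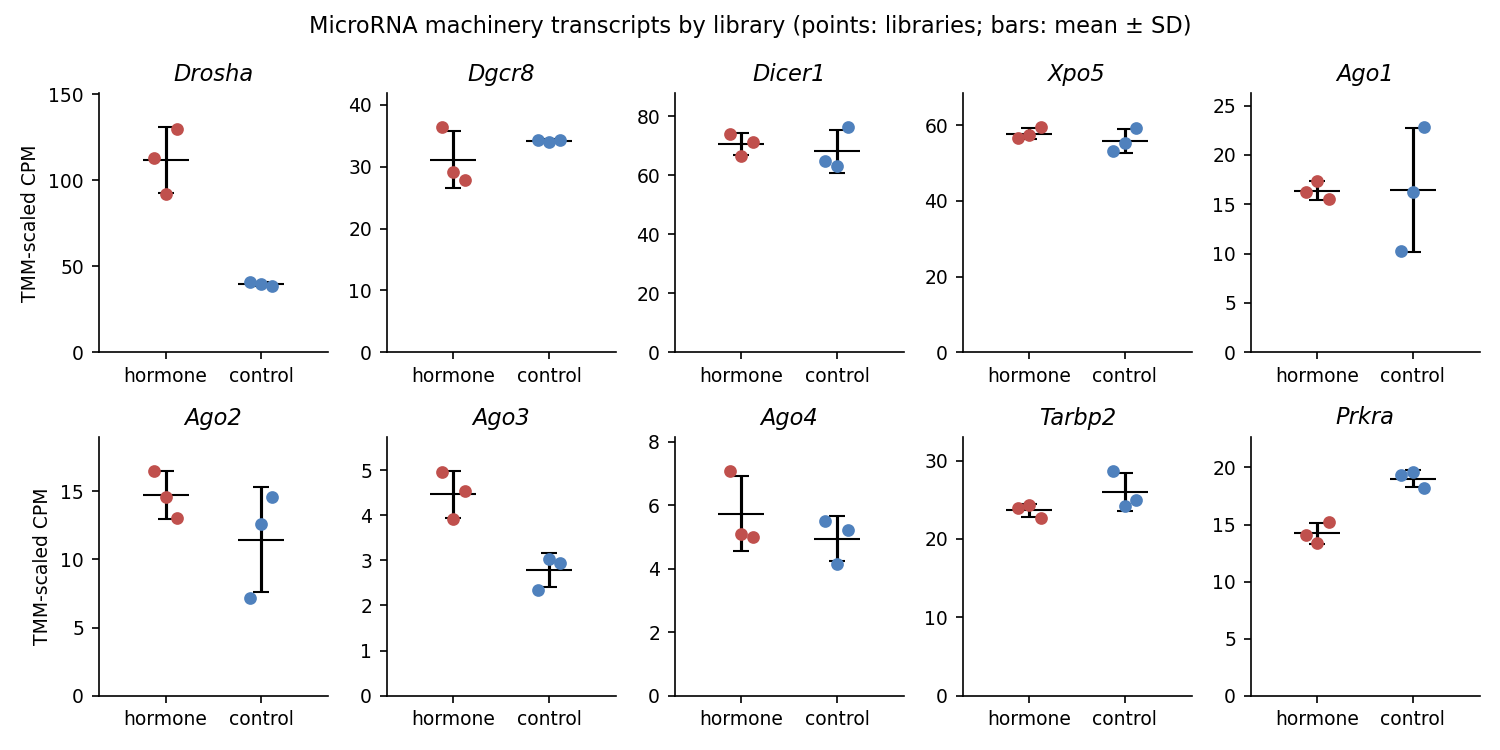
TMM CPM of each of the 10 genes on a linear axis from 0, with hormone libraries (red) left of control libraries (blue). Points are libraries, and bars are the mean ± SD of 3 libraries. The 3 hormone points lie apart from the 3 control points for Drosha and Ago3, where they are higher, and for Prkra, where they are lower.

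Dgcr8 (ENSRNOG00000001886, chromosome 11 from 86852711 to 86885224), which recognises the hairpin and positions Drosha on it, did not follow Drosha. Its level was 36.4, 29.1 and 27.9 TMM CPM in the hormone libraries, against 34.3, 34.0 and 34.4 TMM CPM in the control libraries. Hormone 1 was above all controls and the other hormone libraries were below them, so the groups overlapped. The means were 31.1 ± 4.58 TMM CPM in hormone and 34.2 ± 0.237 TMM CPM in control prostates (SD, n = 3 each), with a log2 fold change of -0.14 ± 0.14 (SE).

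The proportion of the Microprocessor's transcripts was thus unlike in the groups. The FPKM ratio of Drosha to Dgcr8 was 3.14, 3.21 and 4.71 in the hormone libraries, against 1.21, 1.19 and 1.14 in the control libraries. The transcript for the nuclease was thus the more abundant per length in all 6 libraries, and by much more in the hormone group. The FPKM ratio of Drosha to Dicer1, the cytoplasmic nuclease of the pathway, was 3.36, 3.06 and 4.01 in the hormone libraries and 1.39, 1.38 and 1.11 in the control libraries. In contrast the ratio of Dgcr8 to Dicer1 overlapped between the groups, at 0.958 ± 0.110 in hormone and 1.10 ± 0.104 in control prostates (SD, n = 3 each).

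In mouse and human cells the Microprocessor also cuts a hairpin within the Dgcr8 transcript itself. RefSeq annotates a microRNA, Mir1306, inside rat Dgcr8 on the same strand. Its mature arms in the GRCr8 assembly are shown because they lie in a transcript of the set, and the capitals mark the seed, bases 2 to 8:
rno-miR-1306-5p: cCACCUCCccugcaaacgucca
rno-miR-1306-3p: gACGUUGGcucugguggugaug
The row of this hairpin held 1 read count in each of the 6 libraries, too few to compare. Mature microRNAs were not measured, since libraries of this kind are not made from molecules that short.

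Xpo5 (ENSRNOG00000019085, chromosome 9 from 17125201 to 17163170), which exports the hairpin, had nearly equal levels in both groups. It had 56.6, 57.4 and 59.5 TMM CPM in the hormone libraries, against 53.2, 55.3 and 59.4 TMM CPM in the control libraries. The ranges overlapped, and the log2 fold change was 0.05 ± 0.10 (SE).

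Dicer1 (ENSRNOG00000010711, chromosome 6 from 128388053 to 128434183) likewise showed no separation. It had 73.8, 66.3 and 71.3 TMM CPM in the hormone libraries, against 64.6, 63.2 and 76.2 TMM CPM in the control libraries, with control 3 the highest of the 6. The log2 fold change was 0.05 ± 0.11 (SE). Scaling by library totals alone moved the median of all genes by -0.13 on the log2 scale. Under it the log2 fold change was -0.07 for Dicer1 and -0.08 for Xpo5, so neither has a stable sign.

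Of the partners of Dicer, Tarbp2 (TRBP) overlapped between the groups and Prkra (PACT) did not. Tarbp2 (ENSRNOG00000042355) lies on chromosome 7 from 144121744 to 144126857, and Prkra (ENSRNOG00000011195) on chromosome 3 from 63489074 to 63507926. Tarbp2 had 23.9, 24.3 and 22.7 TMM CPM in the hormone libraries, against 28.7, 24.2 and 25.0 TMM CPM in the control libraries. Its log2 fold change was -0.13 ± 0.13 (SE). Prkra, which also binds and activates the kinase PKR, had 14.1, 13.4 and 15.2 TMM CPM in the hormone libraries, against 19.3, 19.6 and 18.2 TMM CPM in the control libraries. All 3 hormone libraries were below all 3 control libraries, at 0.746 times the control level (log2 fold change -0.42 ± 0.14, SE), and the test over all genes did not call it. The FPKM ratio of Tarbp2 to Prkra was 1.81, 1.94 and 1.60 in the hormone libraries and 1.58, 1.32 and 1.46 in the control libraries. These did not overlap, by a small margin (1.60 against 1.58), and the ratio contains Prkra, so it is not a separate result.

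Among the Argonautes, Ago2 is the one that can cleave a matched target in mammals, and Ago1, Ago3 and Ago4 silence mainly through the proteins they recruit. On chromosome 5 the table places Ago3 (ENSRNOG00000034269, 144364269 to 144436509), Ago1 (ENSRNOG00000055915, 144448792 to 144479306) and Ago4 (ENSRNOG00000025596, 144504938 to 144556889) beside one another. Ago2 (ENSRNOG00000008533) lies on chromosome 7 from 114339434 to 114380613. Ago1 had 16.2, 17.4 and 15.5 TMM CPM in the hormone libraries, against 10.3, 16.2 and 22.8 TMM CPM in the control libraries. The control libraries alone spanned the hormone range, and the log2 fold change was -0.00 ± 0.27 (SE). Ago2 had 16.5, 14.6 and 13.0 TMM CPM in the hormone libraries, against 7.14, 12.6 and 14.6 TMM CPM in the control libraries. Those ranges overlapped too, with control 1 the lowest of the 6 for both genes, and the log2 fold change of Ago2 was 0.36 ± 0.27 (SE).

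Ago3 was the Argonaute whose groups separated, at low abundance. It had 4.96, 3.92 and 4.53 TMM CPM in the hormone libraries, against 2.35, 3.04 and 2.95 TMM CPM in the control libraries. The log2 fold change was 0.68 ± 0.24 (SE), on 189 read counts in all hormone libraries and 129 read counts in all control libraries, and the test over all genes did not call it. Its neighbour Ago4 had 7.08, 5.09 and 5.00 TMM CPM in the hormone libraries, against 5.49, 4.13 and 5.20 TMM CPM in the control libraries. Hormone 1 was the highest and the rest overlapped, with a log2 fold change of 0.22 ± 0.24 (SE).

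Added together, the Argonaute transcripts came to 14.0, 12.9 and 11.5 FPKM in the hormone libraries, against 8.75, 12.2 and 15.0 FPKM in the control libraries. The sums overlapped. Ago1 took 42.6 ± 3.31% of this sum in hormone and 48.3 ± 4.45% in control prostates, and Ago2 took 35.3 ± 1.59% in hormone and 31.4 ± 3.05% in control prostates (SD, n = 3 each). Ago3 took 10.7 ± 1.20% in hormone and 7.96 ± 1.52% in control prostates, and Ago4 took 11.4 ± 1.56% in hormone and 12.3 ± 5.10% in control prostates. Ago1 and Ago2 were the main transcripts in both groups, and the shares of Ago1, Ago2 and Ago4 overlapped between the groups. The share of Ago3 did not, by a small margin, with 9.37% in the lowest hormone library and 9.30% in the highest control library.

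**Figure D2:**
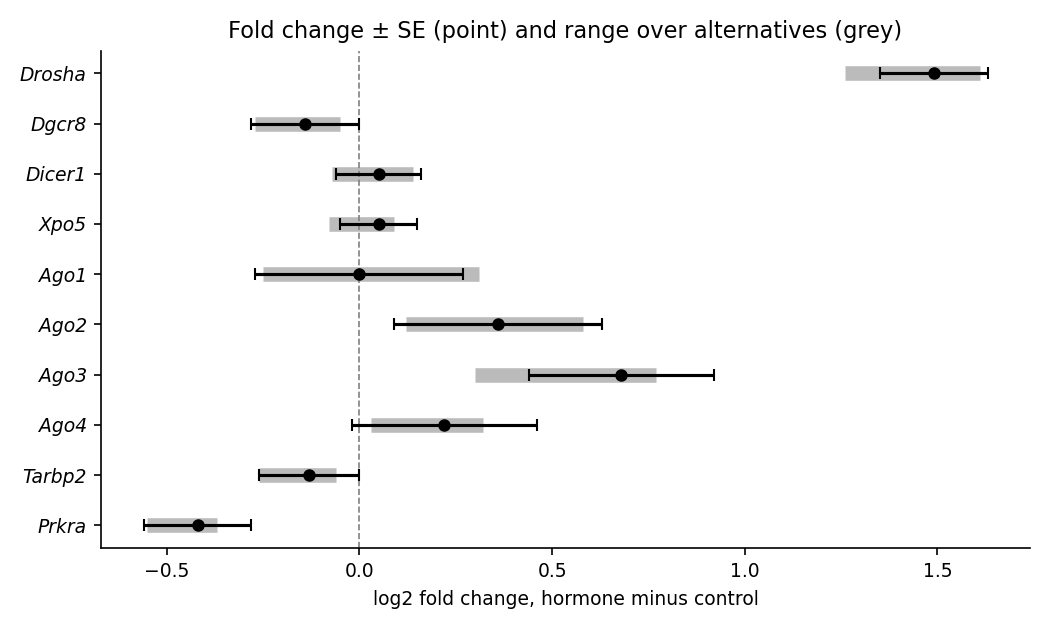
Log2 fold change of each gene, hormone minus control (x axis). Black points and bars are the estimate ± SE, and grey bars span the values under the 14 alternative settings. The grey bar of Drosha runs from 1.26 to 1.61, and those of Dicer1, Xpo5 and Ago1 cross 0.

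Per length, Drosha held a different place in the order of the 10 genes in each group. In hormone prostates it was the most abundant of the 10, at 23.8 ± 3.60 FPKM (SD, n = 3), above Tarbp2 at 15.4 ± 0.912 FPKM, Xpo5 at 11.2 ± 0.0303 FPKM and Prkra at 8.66 ± 0.393 FPKM. Each of these stood above the next in every library, with ranges that did not meet. Dicer1 at 6.84, Dgcr8 at 6.58, Ago1 at 5.43 and Ago2 at 4.52 FPKM followed, each overlapping the next, and Ago4 at 1.47 and Ago3 at 1.36 FPKM came last and overlapped each other. In control prostates Drosha stood in the middle of the order, at 9.27 ± 0.617 FPKM (SD, n = 3), below Tarbp2 at 18.5 ± 2.33, Prkra at 12.7 ± 0.879 and Xpo5 at 11.8 ± 0.247 FPKM. There Prkra and Xpo5 overlapped, while Drosha was separate from both Xpo5 above it and Dgcr8 at 7.87 FPKM below it. Dgcr8, Dicer1 at 7.18, Ago1 at 5.88 and Ago2 at 3.79 FPKM each overlapped the next, and Ago4 at 1.38 and Ago3 at 0.922 FPKM were again lowest, here without overlap.

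The gene next to Drosha differed with it. Drosha (ENSRNOG00000013451) lies on chromosome 2 from 62887267 to 62999572. RGD1306502 (ENSRNOG00000022745), which RefSeq names C2h5orf22, lies from 62870871 to 62887048, and the genes start 218 bases apart and run away from each other. This neighbour was singled out after its values were seen. It had 64.2, 66.1 and 80.4 TMM CPM in the hormone libraries, against 25.8, 25.3 and 26.4 TMM CPM in the control libraries. All hormone values were above all control values, and hormone 3 was the highest library for both genes. RGD1306502 rose by 1.44 ± 0.12 on the log2 scale (SE; edgeR quasi-likelihood test, adjusted p = 0.00442). It was called in all 14 alternative settings, with adjusted p up to 0.0360. The ratio of Drosha counts to RGD1306502 counts was 1.75, 1.40 and 1.61 in the hormone libraries and 1.58, 1.57 and 1.46 in the control libraries, which overlapped. The strand setting of the counting is not given, so reads in any overlap of the divergent transcripts could have been given to either gene.

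**Figure D3:**
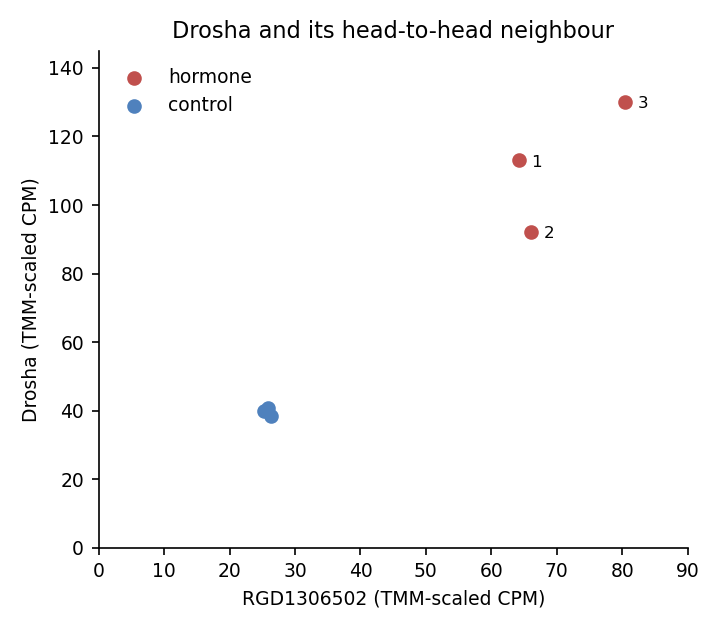
TMM CPM of Drosha (y axis) against RGD1306502 (x axis), one point per library, hormone in red with its library numbers and control in blue. The control libraries lie together near 26 and 40 TMM CPM, and the hormone libraries lie apart from them and from each other.

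The other genes tested in the region, all on the RGD1306502 side of Drosha, did not share the difference. Within 1 Mb of Drosha the table lists 19 rows, of which 9 were tested and 2, Drosha and RGD1306502, were called. The other 7, among them Npr3, Sub1, Zfr, Mtmr12, Golph3 and Pdzd2, had log2 fold changes between -0.41 and 0.19. The nearest of them, Pdzd2, lies 252481 bases from Drosha. No gene past the other end of Drosha was tested, so that side is not covered. Other members also have close neighbours, and none was called by edgeR. Polh, a translesion DNA polymerase that starts 183 bases from Xpo5 in the same divergent layout, had a log2 fold change of 0.28 ± 0.22 (SE; adjusted p = 0.473). Polr1c, a subunit of RNA polymerases I and III at the other end of Xpo5, had -0.15 ± 0.14 (SE; adjusted p = 0.547). Trmt2a, a tRNA methyltransferase whose end faces that of Dgcr8, had -0.37 ± 0.11 (SE; adjusted p = 0.109), which DESeq2 called lower. Npff, beside Tarbp2, was too low to test.

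**Figure D4:**
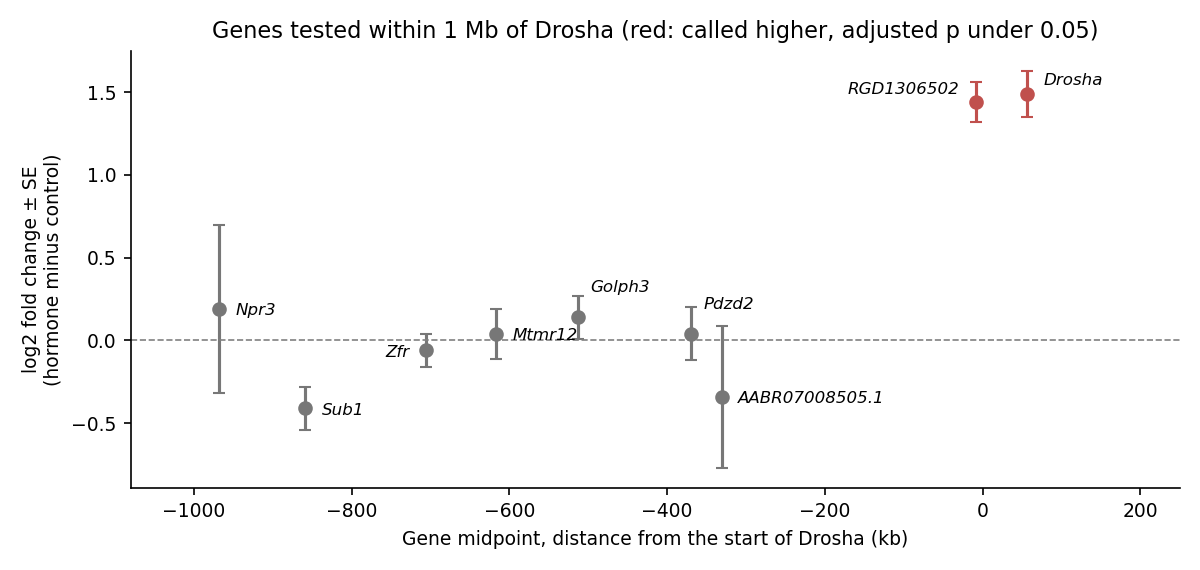
Log2 fold change ± SE, hormone minus control (y axis), of the 9 genes tested within 1 Mb of Drosha, by distance of the gene's midpoint from the start of Drosha in kb (x axis). Drosha and RGD1306502 (red) lie at 1.49 and 1.44, and the other 7 (grey) lie between -0.41 and 0.19. The grey genes are all on the RGD1306502 side of Drosha.

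Divergent pairs were also counted over the whole series. RefSeq strands were available for 10480 tested genes, which gave 403 pairs with starts within 1000 bases of each other. Of all genes tested, 2.39% were called higher. At least 1 gene was called higher in 16 of the 403 pairs, and both were in 3 (18.8% of the 16). Besides RGD1306502 and Drosha these were Iqcb1 and Eaf2, with log2 fold changes of 0.93 and 1.93, and Gpc2 and Stag3, with 1.73 and 2.75. These pairs were looked for after the values at Drosha were seen, and the pair of Drosha itself is 1 of the 3. The 18.8% is a share of pairs already holding a called gene, and the 2.39% is a share of single genes. These are unlike measures, so nothing is read from setting them side by side.

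The stretch between the RefSeq genes is short enough to show whole. In GRCr8 it is chr2:63591765-63591884, 120 bases, given here on the strand of Drosha. Capitals mark matches on either strand to the CCAAT box (CCAAT) and to the core recognised by ETS factors (CCGGAA). The CCGGAA match and the first CCAAT match lie side by side near the left end:
between RGD1306502 and Drosha: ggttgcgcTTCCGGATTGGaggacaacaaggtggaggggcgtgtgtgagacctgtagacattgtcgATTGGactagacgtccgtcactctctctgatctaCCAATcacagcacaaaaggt
It holds 3 CCAAT matches and 1 CCGGAA match, and the 300-base promoter window of Drosha holds 3 and 2. Of 33469 RefSeq promoter windows of 300 bases, 37.5% hold at least 1 CCAAT and 15.0% at least 1 CCGGAA on either strand. The window of Drosha has no GC box (GGGCGG), which 33.1% of windows hold. It also has no full androgen response palindrome (AGAACA and TGTTCT with 3 bases between) and no full estrogen response palindrome (GGTCA and TGACC with 3 bases between). Those palindromes are in 0.0149% and 0.0269% of all windows. A match to letters is not a bound site, and single arms of these palindromes and distant elements were not searched.

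The wider microRNA pathway was followed in 8 lists holding 98 tested genes. Of these 1 rose and 2 fell, 3.06% in all, beside 2.39% of all genes called higher and 0.886% called lower. The median log2 fold change was 0.04, with 52 of 98 above 0, and 37 of 98 had groups that did not overlap, where 31.3% of all genes tested did not.

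Cnot6, a catalytic deadenylase subunit of the CCR4-NOT complex that shortens the poly(A) tails of silenced messages, rose. It had 68.9, 67.7 and 80.2 TMM CPM in the hormone libraries, against 29.6, 35.2 and 38.6 TMM CPM in the control libraries. All hormone libraries were above all controls, and edgeR put the log2 difference at 1.07 ± 0.14 (SE; adjusted p = 0.0126). The call was lost without control 2 (adjusted p = 0.0636) and without hormone 1, 2 or 3 (adjusted p = 0.0514, 0.0539 and 0.0585). It was the 1 call among 21 silencing effectors, 17 of which had a positive log2 fold change, with a median of 0.19. The median of all genes was -0.00, or -0.13 with library totals alone, so the sign of the smallest of these changes depends on the scaling. Cnot1, the scaffold of the same complex, had 0.31 ± 0.16 (SE; adjusted p = 0.306), and the poly(A)-binding protein Pabpc1 had -0.06 ± 0.17 (SE; adjusted p = 0.870).

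Ptges3, the Hsp90 cochaperone p23, fell. It had 104, 103 and 91.6 TMM CPM in the hormone libraries, against 144, 152 and 142 TMM CPM in the control libraries. The groups did not overlap, and the log2 fold change was -0.55 ± 0.10 (SE; edgeR adjusted p = 0.0354). Among changes of filter and left-out libraries, the call was lost without a filter on low counts (adjusted p = 0.0518), without control 2 (0.118), without control 3 (0.0575) and without hormone 1, 2 or 3 (0.117, 0.133 and 0.152). Ptges3 was the 1 call among 9 tested chaperones that help to load Argonaute, of which 2 had a positive log2 fold change (median -0.18). DESeq2 also called Stip1, another Hsp90 cochaperone, lower (log2 fold change -0.63 ± 0.16, SE; edgeR adjusted p = 0.0770, DESeq2 adjusted p = 0.00697) and the immunophilin Fkbp5 higher (0.46 ± 0.15, SE; edgeR adjusted p = 0.132, DESeq2 adjusted p = 0.0245). Both are named after their values were seen. Hsp90ab1, the abundant Hsp90 of the list, had 2394, 2789 and 2407 TMM CPM in the hormone libraries, against 2991, 3779 and 3256 TMM CPM in the control libraries. Its groups did not overlap, and the test did not call it (log2 fold change -0.40 ± 0.18, SE; adjusted p = 0.236). Fkbp4, an immunophilin too, had 0.17 ± 0.14 (SE; adjusted p = 0.506).

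Copz2, a coatomer subunit gene that hosts the microRNA Mir152, fell too. It had 23.4, 27.4 and 24.7 TMM CPM in the hormone libraries, against 70.9, 47.4 and 44.7 TMM CPM in the control libraries. Control 1 was far above the other controls, yet all controls were above all hormone libraries (log2 fold change -1.11 ± 0.19, SE; edgeR adjusted p = 0.0294). With a library left out, the call was lost without control 2 (adjusted p = 0.0779) and without hormone 1, 2 or 3 (0.107, 0.0801 and 0.104). Copz2 was the 1 call among 24 tested genes of the host list, whose median was 0.03, and DESeq2 also called Pank3, a pantothenate kinase, higher (log2 fold change 0.40 ± 0.11, SE; DESeq2 adjusted p = 0.0268, edgeR adjusted p = 0.0943). Its paralog Copz1, host of Mir148b, had 189, 220 and 223 TMM CPM in the hormone libraries and 253, 212 and 218 TMM CPM in the control libraries, which overlapped (log2 fold change -0.11, adjusted p = 0.622). The other abundant host, Dnm2, had a log2 fold change of 0.21 (adjusted p = 0.369).

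**Figure D5:**
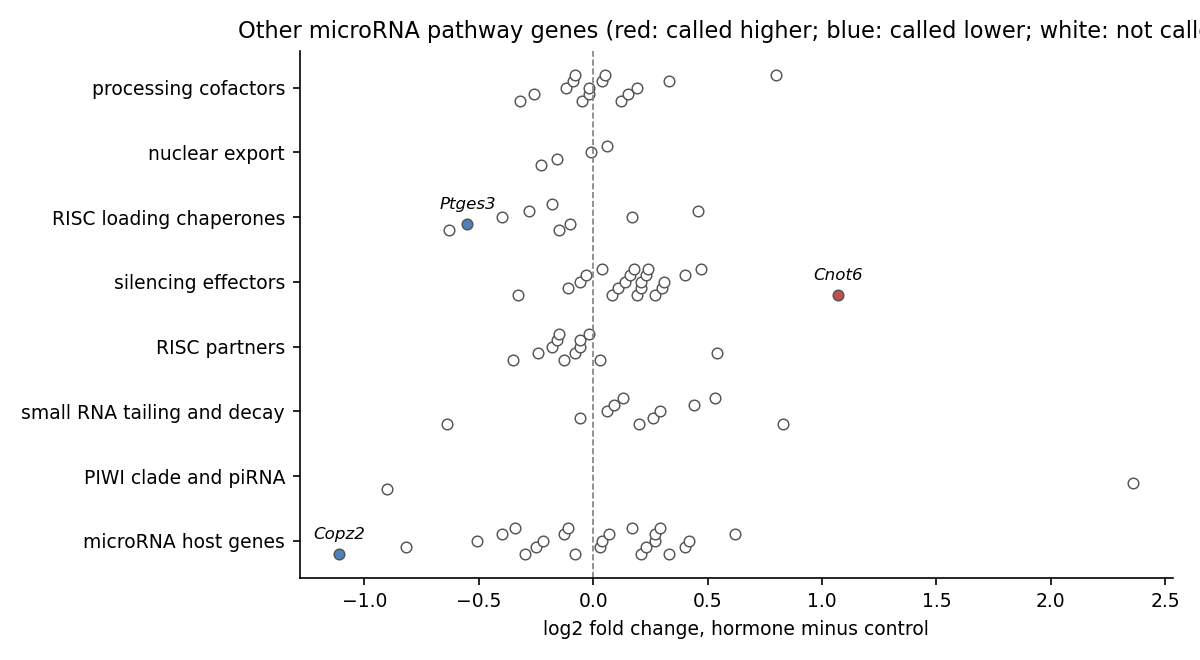
Log2 fold change, hormone minus control (x axis), of the 98 tested genes of 8 pathway lists (rows), one point per gene. Cnot6 (red) was called higher, Ptges3 and Copz2 (blue) were called lower, and the white points were not called.

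In the other 5 lists edgeR called 0 genes. There 6 genes had an unadjusted p under 0.05, and DESeq2 called 3 higher (Adar, Eri1 and Piwil4, named after their values were seen) and 0 lower. Piwil4, which is in both counts, passed the filter on low counts only through the hormone group, so nothing is read from its call. Over all 14003 genes tested, DESeq2 called 906 higher and 618 lower. The share of all genes at an unadjusted p under 0.05 is not given here, so the 6 genes are not read as many or few. Adar, an RNA editing enzyme, had 123, 77.1 and 77.7 TMM CPM in the hormone libraries against 37.7, 62.4 and 59.1 TMM CPM in the control libraries (log2 fold change 0.80 ± 0.25, SE; edgeR adjusted p = 0.128). Eri1, an exoribonuclease that trims small RNAs, had 35.4, 38.1 and 36.1 TMM CPM in the hormone libraries and 23.0, 26.4 and 26.4 TMM CPM in the control libraries (0.53 ± 0.12, SE; edgeR adjusted p = 0.0572). Neither overlapped between the groups, and for Adar hormone 1 was far above the other hormone libraries.

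Among 15 processing cofactors the median log2 fold change was -0.02. The RNA helicase Ddx5, a Microprocessor cofactor, had 0.33 ± 0.16 (SE; adjusted p = 0.262), and Hnrnpa2b1, which binds primary microRNAs, had 0.04 ± 0.13 (SE; adjusted p = 0.879). The 4 nuclear export genes had a median of -0.09, with -0.01 for the GTPase Ran that Xpo5 needs and 0.06 for Rangap1 (adjusted p = 0.977 and 0.883). The 12 partners of the silencing complex had a median of -0.10, with -0.02 for Snd1 and -0.08 for Fxr2 (adjusted p = 0.954 and 0.672). The 11 genes of small RNA tailing and decay had a median of 0.20, with 0.44 for the uridylyltransferase Tut7 and 0.13 for the exonuclease Xrn2 (adjusted p = 0.229 and 0.543).

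Of the PIWI clade, known from the germ line, 2 genes passed the filter on low counts. Piwil4 had 0.708, 1.16 and 3.67 TMM CPM in the hormone libraries, against 0.357, 0.304 and 0.385 TMM CPM in the control libraries. Hormone 3 held most of the difference (log2 fold change 2.36 ± 0.69, SE; edgeR adjusted p = 0.108). The read counts of Piwil4 were 11, 16 and 47 in the hormone libraries and 5, 5 and 6 in the control libraries. It thus passed the filter only through the hormone group, where it is high. Piwil2 had 1.16, 0.945 and 0.469 TMM CPM in the hormone libraries, against 1.64, 2.00 and 1.22 TMM CPM in the control libraries (-0.90 ± 0.41, SE; adjusted p = 0.244).

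The table names 437 microRNA rows, of which 386 held at most 6 counts over all libraries and 5 could be tested. EdgeR called 0 of the 5, and 1 had an unadjusted p under 0.05. DESeq2, which called 906 of all 14003 genes tested higher, called that same 1 higher. It was Mir3064, which lies inside Ddx5 and had 489, 486 and 389 read counts in the hormone libraries, against 335, 367 and 321 read counts in the control libraries (log2 fold change 0.54 ± 0.13, SE; edgeR adjusted p = 0.0677). Reads of a host transcript and of a hairpin inside it cannot be told apart in such rows.

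Hairpins were therefore also followed through the genes that contain them, a group defined after the values were seen. The table places 110 hairpins inside 98 tested genes, leaving out 16 hairpins on the opposite strand and keeping 30 of unknown strand. Of these hosts 1 rose and 2 fell (3.06%), beside 2.39% of all genes called higher and 0.886% called lower, so the share was near the background. Their median log2 fold change was 0.06. Plod3, a collagen lysyl hydroxylase that holds Mir702, had 85.9, 85.1 and 88.9 TMM CPM in the hormone libraries and 60.6, 64.0 and 58.6 TMM CPM in the control libraries (log2 fold change 0.50 ± 0.09, SE; adjusted p = 0.0358). Col27a1, a fibrillar collagen gene that holds Mir455, had 5.34, 4.65 and 3.05 TMM CPM in the hormone libraries and 13.1, 11.8 and 9.11 TMM CPM in the control libraries (-1.38 ± 0.26, SE; adjusted p = 0.0376). Copz2 was the other host that fell. The count of hosts called higher was 0 without control 2, without control 3 and without any 1 hormone library, and the count called lower was 0 without control 2 and without any 1 hormone library.

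The mature sequences below, 1 arm per microRNA, show seeds, the bases that pair with targets. They are those of the hosts that rose or fell, and of Mir148b. They come from RefSeq for GRCr8, with the seed (bases 2 to 8) in capitals:
rno-miR-152-3p: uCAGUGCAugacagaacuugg
rno-miR-148b-3p: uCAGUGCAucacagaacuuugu
rno-miR-455-3p: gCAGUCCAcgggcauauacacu
rno-miR-702-3p: uGCCCACCcuuuaccccacucca
The seed CAGUGCA of miR-152-3p, whose host Copz2 fell, is also that of miR-148b-3p, whose host Copz1 overlapped between the groups, and is held by 3 of 724 rat mature sequences. Each of the other seeds shown is held by 1 of 724. The other arms of Mir152 and Mir702, rno-miR-152-5p and rno-miR-702-5p, have the seeds GGUUCUG and UGAGUGG. The rows of Mir152, Mir148b and Mir455 held 0 counts, which allows up to 3 counts per library, so the host level says nothing of how much mature microRNA was present.

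The genes whose levels over the 6 libraries were most like those of Drosha, among 8745 genes with a mean of at least 5 FPKM and by Pearson correlation of log2 TMM CPM, were Clca4 (r = 0.994), Zbtb40 (r = 0.994), Cemip2 (r = 0.993), Slc25a36 (r = 0.990) and Ppp2r5d (r = 0.989). RGD1306502 ranked 4 when genes without an established symbol were kept (r = 0.990). The 6 libraries fall into their 2 groups, so r mostly reflects the difference between the groups. Likeness did not mean equal size, since the log2 fold change was 6.14 for Zbtb40 and 0.38 for Ppp2r5d.

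Cell type markers differed between the groups beside these results. Summed TMM CPM of 10 proliferation genes was 126 to 165 in hormone and 43.2 to 56.2 in control libraries. EdgeR called 8 of these 10 higher, beside 2.39% of all genes tested. Luminal epithelial markers summed to 2416 to 2985 in hormone and 1770 to 2048 in control libraries. All 7 had a positive log2 fold change, and 6 had an unadjusted p under 0.05. Of these 7, edgeR called 1 higher (Krt8), and DESeq2 called 4 higher and 0 lower. Leukocyte markers summed to 226 to 400 in hormone and 112 to 218 in control libraries. EdgeR called 0 of the 10 leukocyte markers tested, 7 had an unadjusted p under 0.05, and DESeq2 called 3 higher and 1 lower. Smooth muscle, fibroblast, basal, endothelial, nerve, prostate secretory and seminal vesicle lists overlapped between the groups in their sums. Among them edgeR called 1 of 5 endothelial markers higher (Kdr, with all 5 positive) and 1 of 4 secretory markers higher (Sbp, with 2 of the 4 positive). DESeq2 called 1 endothelial and 1 secretory marker higher, and 1 secretory, 1 fibroblast and 1 nerve marker lower. The basal, secretory, fibroblast and nerve lists each had 2 markers at an unadjusted p under 0.05, and the endothelial list had 1. All 7 smooth muscle markers had a negative log2 fold change, with none called by edgeR or DESeq2 and 1 at an unadjusted p under 0.05. The called markers are named after their values were seen. Over all 14003 genes tested, DESeq2 called 906 higher and 618 lower. The share of all genes at an unadjusted p under 0.05 is not given here, so nothing is read from the marker counts at that threshold. Of the secretory genes Pbsn and Spink1 were listed at 0, as were Svs3a, Svs4 and Svs5 of seminal vesicle. The part of these cell types in the level of Drosha or RGD1306502 was not tested.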

How the data were processed

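The authors deposited 1 table holding, for every gene, raw read counts and FPKM values (counts per length and library total) for 6 libraries, made from total RNA with a TruSeq RNA kit, per the labels' protocols. TopHat, Bowtie2 and HTSeq were used, per the submitters' processing notes. Not given in the sources used here are versions, genome build, annotation, strand setting and treatment of multiply mapped reads. Deposited FPKM equalled count over length and library total to within 0.00112% over 10529 genes. The table held 0 columns of other samples.

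The main test used R 4.3.3 and edgeR 4.0.16 on counts: filterByExpr (minimum count 10, total 15), TMM, and the robust quasi-likelihood test of hormone against control, two-sided, Benjamini-Hochberg adjusted over 14003 genes, called under 0.05. There were 4 residual degrees of freedom, and the biological coefficient of variation was 22.7%. The main fit was also run on simulated counts for 14003 genes, with 50 genes changed at each fold. It called 98% of those raised 4-fold and 62% of those raised 2-fold. It called 52% of those at 0.500 and 100% of those at 0.250 times the level. Among unchanged genes there were 16 false calls. The changed genes were drawn only from the more abundant genes, so these shares do not cover genes as low as Ago3. A gene that was not called may thus still differ. Alternatives used DESeq2 1.42.0, limma 3.58.1 on log2(FPKM + 1) and log2(FPKM + 0.1), other scalings and filters, a replicate block and each library left out. Same-numbered libraries did not deviate together, so numbers were not used as pairs. Within-group library pairs differed by a chi-square per gene of 22.7 to 114, far beyond sampling noise.

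The members and all lists were chosen with earlier results of these data known. The naming rule takes all members, called pathway genes, the 2 genes of highest FPKM per list and the 5 genes most like the member with the largest difference. Symbols and coordinates are the table's, and strands, promoters and microRNA sequences are RefSeq's (GRCr8). Protein sequences were not used here.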

Additional observations from a re-analysis of the deposited data

How the results depend on the processing

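Over 14 alternatives, members called higher stayed at 1 (Drosha, log2 fold change 1.26 to 1.61) and members called lower at 0. To 2 decimals the log2 fold change of Ago1 was above 0 in 3, below 0 in 7 and at 0 in 4, that of Dicer1 was below 0 in 3 and at 0 in 1, and that of Xpo5 was below 0 in 3. The other members kept their sign. Pathway genes called higher numbered 6 by DESeq2 (Piwil4 among them), against 1, and 0 to 1 with a library left out. Pathway genes called lower numbered 1 without a filter on low counts, 0 with the replicate block and 0 to 3 with a library left out, against 2. Hosts of hairpins called higher, 1 in the main test, numbered 6 by DESeq2, 2 with median-of-ratios factors, and 0 with library totals, with the replicate block and with limma at either pseudocount (0.1 or 1), and 0 to 3 with a library left out. Hosts called lower numbered 1 with the replicate block and 1 with limma at either pseudocount, against 2, and 0 to 2 with a library left out. With the replicate block Ptges3 had an adjusted p of 0.0761 and Copz2 0.0611. Same-numbered libraries correlated at 0.083, -0.057 and 0.070. Over all genes, 334 higher and 124 lower calls became 906 and 618 by DESeq2, 228 and 80 with the block, 259 and 230 with library totals, 152 and 128 with limma (pseudocount 1), 149 and 128 (pseudocount 0.1), and 51 and 13 without control 2. Without 1 hormone library they were 98 to 102 higher and 12 to 21 lower. Why calls moved was not tested. Ago3 and Ago4, the members with the fewest reads, rest on 129 to 244 counts per group.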
